A study of Arabidopsis thaliana with 8 samples.

Results

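The genes described here are the WRKY transcription factors that the array's probe annotation names, together with ZAT10. A gene was taken as a WRKY gene where a probe set of 1 gene carried a symbol made of WRKY and a number, and each gene was represented by its brightest probe set. This gave 7 genes, each with 1 probe set: WRKY6 (AT1G62300), WRKY20 (AT4G26640), WRKY22 (AT4G01250), WRKY42 (AT4G04450), WRKY47 (AT4G01720), WRKY53 (AT4G23810) and ZAT10 (AT1G27730, listed on the array as STZ). Of these, 6 lay in the upper 60% of probe sets by mean log2 intensity over the 8 arrays and were tested, among 13648 probe sets in all. RefSeq lists 67 genes under a WRKY symbol, so the 6 WRKY genes found here cover a small share of the family, and the others are not analysed here. WRKY42 lay below the filter and is given by its values.

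Transcript levels were measured on Affymetrix ATH1 arrays, which hybridise labelled RNA to short probes grouped into probe sets, in whole *Arabidopsis thaliana* seedlings grown in the dark for 7 days. The 4 groups were wild type on control medium with 1 µM zinc, wild type on high-Zn medium with 100 µM zinc, the mutant dez on control medium with 1 µM zinc and dez on high-Zn medium with 100 µM zinc. All groups were grown in the dark on modified Hoaglands medium after a short exposure of the seeds to light, and were harvested in dim green light. Each group had 2 biological replicates of about 45 pooled seedlings, so the spread between plants is not seen. The mutant dez is known to carry a lesion in TRICHOME BIREFRINGENCE, a gene of cell wall acetylation; the allele and the background accession are not stated in the labels.

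WRKY proteins are plant transcription factors named after a conserved stretch of amino acids, and they bind W-box elements in the promoters of defence, senescence and stress genes. Many of them are switched on within minutes to hours of a stimulus, act downstream of MAP kinase cascades and regulate each other's promoters. The family is divided into groups by the number of WRKY domains and the type of zinc finger. ZAT10, also known as SALT TOLERANCE ZINC FINGER, belongs to another family, the C2H2 zinc fingers, and is a repressor whose transcript rises under salt, drought, cold, high light and oxidative stress.

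The arrays were on a common scale, with medians of the deposited intensity between 34.7 and 37.2, and the lowest correlation between replicates was 0.983 over the tested probe sets. Several control measures moved with the groups. The 25S ribosomal RNA control probe set had a log2 intensity of 5.98 ± 0.69 (SD, n = 2) in control wild type and 6.56 ± 0.066 in zinc-grown wild type, against 8.18 ± 0.48 in control dez and 9.63 ± 1.19 in zinc-grown dez. The actin and GAPDH probe sets, whose 3' minus 5' log2 difference reflects RNA integrity and labelling, gave 1.78 ± 0.30, 1.59 ± 0.11 and 1.46 ± 0.15 in the first 3 of these groups and were lowest in zinc-grown dez. The poly-A spikes had a mean log2 intensity of 7.67 ± 0.34 in control wild type, and of 6.77 ± 0.23 in zinc-grown dez. Of 16 seed storage and late embryogenesis markers 2 had a probe set, and their summed intensity was 41.3 to 41.9 in dez on high zinc and 71.3 to 138.0 in the other groups. Of 18 light response markers 3 had one (PORB, CHI and HYH), with sums of 744.4 to 933.9 in dez on high zinc and 1604 to 2398 elsewhere. PORB made up most of this sum and fell with zinc in dez, from a mean of 1576 to 633.6, while CHI and HYH had their highest means in dez on high zinc, 158.9 and 46.6, and did not pass the test in any comparison. Of 16 root markers 3 had one, and their sums ran from 2854 to 3899 over all arrays; of 14 flower and pollen markers 3 had one, with sums from 40.4 to 57.7. No marker was listed at 0. The part of these measures in the results below was not tested, except that values under spike scaling and with the 3' minus 5' difference as a covariate are given.

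High zinc raised 5 of the 6 tested genes in dez, where 34.0% of all tested probe sets passed an adjusted p of 0.05 and 16.6% passed as higher. In wild type none of the 6 passed limma's test, and 0.703% of all probe sets did. WRKY53, ZAT10, WRKY47, WRKY6 and WRKY22 each had their highest level in dez on high zinc, where both arrays stood above all 6 other arrays. The same held narrowly for WRKY20, with its lower dez high-Zn array at 94.5 and its higher dez control array at 94.4. This separation therefore does not set the 5 genes apart, and its share among all probe sets was not counted. WRKY20 had overlapping or close values in all groups, and WRKY42 was near the bottom of the scale everywhere. In whole seedlings a change in the share of cells that express a gene and a change in the transcript per cell cannot be told apart.

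**Figure D1:**
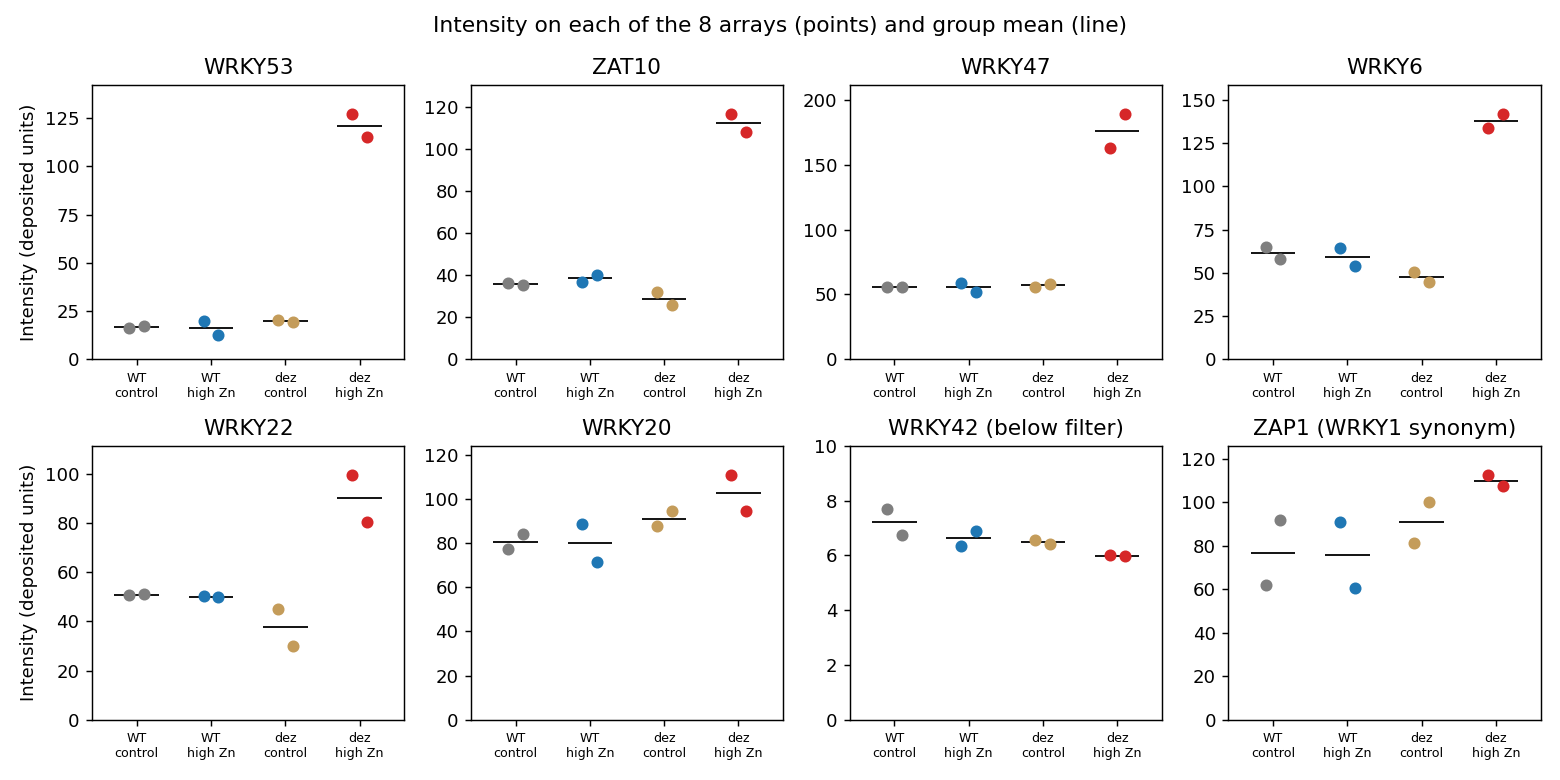
Deposited intensity (y axis, linear, from 0) of each gene on each of the 8 arrays, by group (x axis); points are arrays, ordered by replicate number, and lines are group means of 2 arrays. In WRKY53, ZAT10, WRKY47, WRKY6 and WRKY22 both dez high-Zn arrays lie above the other 6 arrays, while WRKY42 stays below 8 throughout. In WRKY20 and in ZAP1, which is described below, they also lie above the other 6, by a smaller margin.

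WRKY53, a group III WRKY factor known for promoting the onset of leaf senescence and for its induction by hydrogen peroxide, had the largest zinc response of the 6 genes in dez. Its intensity was 16.2 and 17.0 in control wild type, 19.5 and 12.4 in wild type on high zinc, 20.0 and 19.0 in dez on control medium, and 127.0 and 115.2 in dez on high zinc. Only the dez high-Zn arrays were high, and the other 6 arrays lay together at a low level. The mean of 121.1 ± 8.37 (SD, n = 2) in dez on high zinc was 6.20 times that in dez on control medium and 7.60 times that in wild type on high zinc. On the log2(intensity + 16) scale, which understates changes of dim genes, zinc raised WRKY53 in dez by 1.95 ± 0.12 (SE, limma adjusted p = 1.73e-06), the 91st largest change of the 13648. In wild type the zinc change was -0.04 ± 0.12 (limma adjusted p = 0.933). WRKY53 was tested because of its level in dez on high zinc: over the other 6 arrays its mean log2 value was 5.06, under the filter at 5.25. In the fit without a filter the zinc change in dez had limma adjusted p = 2.92e-06.

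ZAT10 was at 36.3 and 35.2 in wild type on control medium, 36.8 and 40.1 in wild type on high zinc, 31.8 and 25.9 in dez on control medium, and 116.6 and 108.4 in dez on high zinc. The dez control arrays were thus the lowest and the dez high-Zn arrays the highest, with no overlap between these groups. The zinc response of ZAT10 in dez was 3.91 times in mean intensity, or a log2 change of 1.52 ± 0.11 (SE; limma adjusted p = 4.17e-06). In wild type the zinc change was 0.07 ± 0.11, with a 95% interval from -0.16 to 0.31.

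WRKY6 and WRKY47 belong to group IIb, as does WRKY42. WRKY6 is known from senescence, pathogen defence and phosphate starvation, where it represses the phosphate exporter gene PHO1. Its intensity was 64.7 and 57.7 in wild type on control medium, 64.6 and 53.9 in wild type on high zinc, 50.2 and 44.6 in dez on control medium, and 133.7 and 141.8 in dez on high zinc. It was lowest in dez on control medium and highest in dez on high zinc, a log2 rise with zinc of 1.28 ± 0.12 (SE; limma adjusted p = 2.31e-05). WRKY47, which has been linked to aluminium tolerance through cell wall genes, was nearly level outside dez on high zinc: 55.8 and 55.5 in wild type on control medium, 59.1 and 51.7 in wild type on high zinc, 55.9 and 58.0 in dez on control medium, then 163.4 and 189.1 in dez on high zinc. Its zinc change in dez was 1.40 ± 0.11 (limma adjusted p = 1.04e-05), 3.10 times in mean intensity, against -0.01 ± 0.11 in wild type. WRKY42, known for its part in phosphate homeostasis, ranged from 5.96 to 7.70 over all arrays, with a mean log2 value of 4.50 against the filter at 5.25; WRKY53, the dimmest gene inside the filter, had 5.57. In the fit without a filter WRKY42 had log2 changes between -0.05 and 0.01 and limma adjusted p between 0.404 and 0.960 in the 5 comparisons. At so low a level a difference may not be detectable.

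WRKY22, a group IIe factor of the MAP kinase cascade downstream of the flagellin receptor and also known from dark-induced senescence, had the smallest of the 5 responses. It was at 50.7 and 50.9 in wild type on control medium and 50.2 and 49.7 in wild type on high zinc, 45.2 and 29.8 in dez on control medium, and 99.4 and 80.4 in dez on high zinc. The 4 wild-type arrays lay close together, while the 2 dez control arrays were far apart. In dez WRKY22 rose with zinc by a log2 change of 0.99 ± 0.14 (SE; limma adjusted p = 4.57e-04). Leaving out dez control replicate 2 gave 0.79, the lowest value with any 1 of the 8 arrays left out, and the change was called in all 8 of these fits.

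WRKY20, a group I factor with a pair of WRKY domains, did not follow the others. Its intensity was 77.3 and 83.9 in wild type on control medium, 88.4 and 71.6 in wild type on high zinc, 87.6 and 94.4 in dez on control medium, and 110.8 and 94.5 in dez on high zinc. The lower dez high-Zn array was level with the higher dez control array. The zinc change in dez was 0.15 on the log2 scale, with a 95% interval from -0.13 to 0.42 (limma adjusted p = 0.406). ZAP1, whose RefSeq synonym is WRKY1 and which the symbol rule therefore leaves out, is also a group I factor. It was at 61.8 and 91.7 in wild type on control medium, 91.1 and 60.4 in wild type on high zinc, 81.4 and 100.2 in dez on control medium, and 112.6 and 107.3 in dez on high zinc, and its zinc change in dez was 0.24 ± 0.19 (SE, limma adjusted p = 0.354).

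Each comparison of the design was fitted over all tested probe sets, so the genes can be read against the share of probe sets past the threshold of 0.05. For zinc in dez, the median log2 change of the 6 genes was 1.34, against 0.01 for all tested probe sets. For zinc in wild type, none of the 6 had an unadjusted p under 0.05 in limma's test. The changes in wild type lay between -0.04 and 0.07 with 95% intervals that together ran from -0.34 to 0.31. WRKY53 entered the test through its level in dez on high zinc, so the count and the median are descriptions and are no support for a response of the family.

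**Figure D2:**
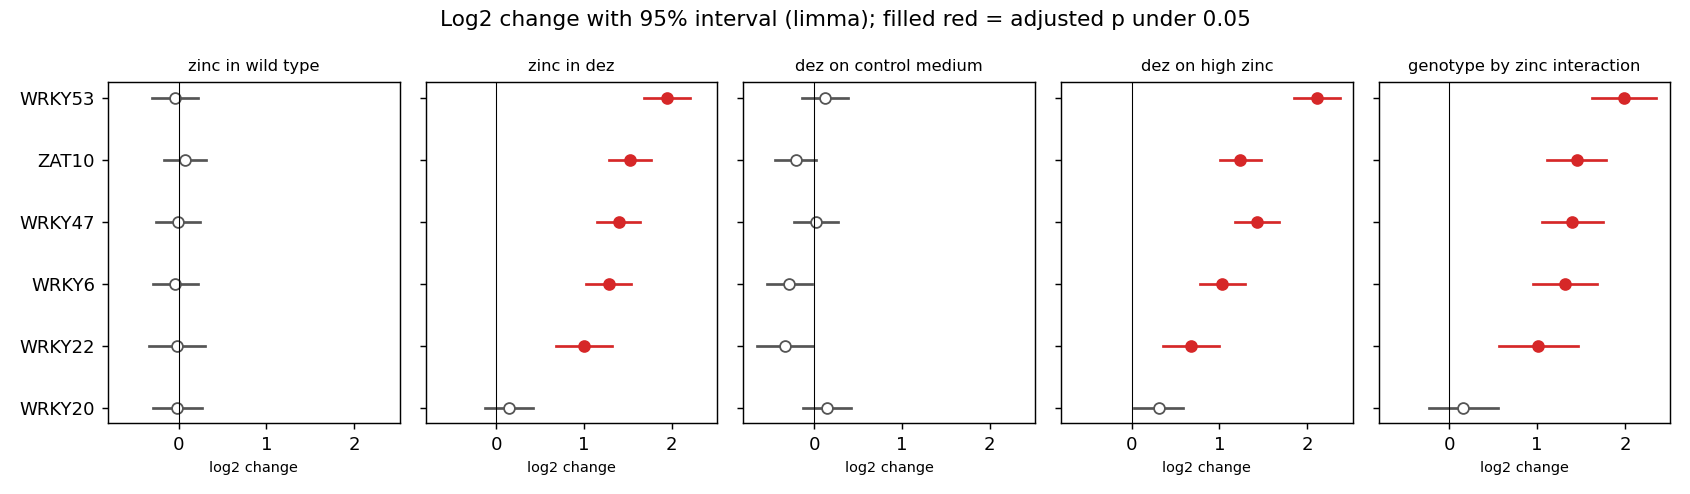
Log2 change (x axis) of the 6 tested genes in the 5 comparisons, with 95% intervals from limma; filled red points passed an adjusted p of 0.05. Between 0.68 and 2.11, the 5 genes from WRKY53 to WRKY22 lie to the right of 0 for zinc in dez, dez on high zinc and the interaction, and no gene is called for zinc in wild type or for dez on control medium.

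On control medium dez and wild type were not told apart in these genes. The log2 differences ran from -0.34 for WRKY22 to 0.15 for WRKY20, with limma adjusted p between 0.155 and 0.916, and 9.58% of all probe sets were called in this comparison. That share moved with single arrays: these 1308 probe sets became 519 and 359 when the first or the second dez control array was left out, and 693 when wild-type control replicate 2 was. WRKY6 and WRKY22 had an unadjusted p under 0.05: WRKY6 had a mean of 47.4 ± 3.95 (SD, n = 2) in dez against 61.2 ± 4.94 in wild type, and WRKY22 had 37.5 ± 10.9 against 50.8 ± 0.15. ZAT10 had 28.8 ± 4.17 in dez against 35.7 ± 0.72 in wild type, a log2 difference of -0.21 ± 0.11 (SE, limma adjusted p = 0.249). With scaling by the spikes the median over all probe sets became 0.40 here, and these differences of ZAT10, WRKY6 and WRKY22 turned positive, to 0.10 for ZAT10, so their direction on control medium is not settled.

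On high zinc 5 of the 6 genes were higher in dez than in wild type, with 42.8% of all probe sets called and 22.2% called higher. WRKY53 had a log2 difference of 2.11 ± 0.12 (SE; limma adjusted p = 7.91e-07), WRKY47 one of 1.43 ± 0.11, ZAT10 of 1.24 ± 0.11, WRKY6 of 1.03 ± 0.12 and WRKY22 of 0.68 ± 0.14 (limma adjusted p = 0.00353). WRKY20 had a difference of 0.31, with a 95% interval from 0.03 to 0.58 and limma adjusted p = 0.0696. It was called at 0.43 without wild-type high-Zn replicate 1 (limma adjusted p = 0.0308) and at 1.00 under spike scaling, where the median over all probe sets was 0.69. This comparison shares the dez high-Zn arrays with that of zinc in dez, so the values are not independent of each other.

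The interaction asks whether the change with zinc differed between the genotypes. The same 5 genes had a positive interaction past the threshold: WRKY53 with 1.99 ± 0.16 (log2, SE, limma adjusted p = 5.36e-05), ZAT10 with 1.45 ± 0.15, WRKY47 with 1.40 ± 0.16, WRKY6 with 1.32 ± 0.16 and WRKY22 with 1.01 ± 0.20 (limma adjusted p = 0.00592). Of all tested probe sets 19.4% were called in the interaction and 8.87% were called positive. WRKY20 had an interaction of 0.16 with a 95% interval from -0.23 to 0.55. By rank from the highest value among the 13648, WRKY53 stood at 73, ZAT10 at 187, WRKY47 at 201, WRKY6 at 236 and WRKY22 at 425. With each array left out in turn all 5 interactions were still called, with limma adjusted p of at most 0.0316. Under poly-A spike scaling they lay between 1.33 and 2.34, where the median of all probe sets was 0.30, and with the 3' minus 5' difference as a covariate between 1.04 and 2.00. All 5 passed in both fits, with limma adjusted p of at most 0.0251 and 0.00728.

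**Figure D3:**
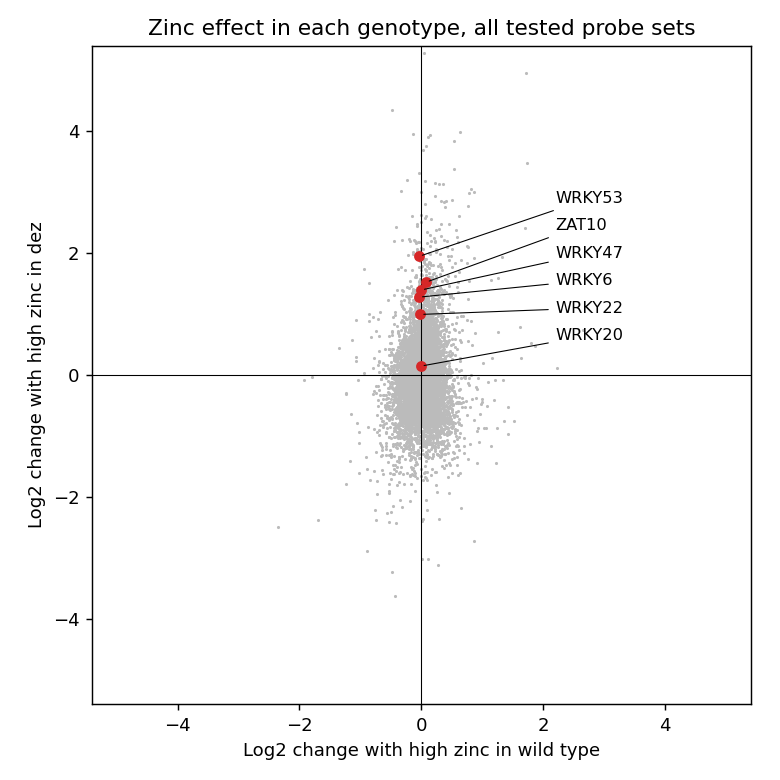
Log2 change with high zinc in wild type (x axis) and in dez (y axis) for all 13648 tested probe sets (grey points), with the 6 genes in red. The 5 called genes lie between 0.99 and 1.95 on the y axis and between -0.04 and 0.07 on the x axis; WRKY20 lies at 0.15 and -0.01.

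The 5 called genes resembled each other across the arrays. Their log2 values had pairwise Pearson correlations between 0.85 for WRKY47 with WRKY22 and 0.99 for WRKY47 with WRKY53 over the 8 arrays, which share the contrast of dez on high zinc with the rest. WRKY20 had correlations between 0.50 and 0.78 with the 5 others. The 5 genes were set together by their calls on these same arrays, which favours high correlations, so these values are a description only. The lowest mean of ZAT10, WRKY6 and WRKY22 was in dez on control medium, and that of WRKY53, WRKY47 and WRKY20 in wild type on high zinc. These orders are not settled. The WRKY47 means were 55.4 in wild type on high zinc and 55.7 in control wild type. Spike scaling turned the control-medium differences of ZAT10, WRKY6 and WRKY22 positive. Neither zinc in wild type nor dez on control medium was called for any of them.

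Among the 7231 other named genes with a tested probe set, those most like WRKY53 by Pearson correlation over the 8 arrays were AT3G13910, AT5G19440, AT5G54170, AT5G44390 and AT4G12500, with r between 0.995 and 0.997. AT5G19440 had mean intensities of 457.8 and 478.6 in wild type on control medium and high zinc, and 529.0 and 1552 in dez. AT4G12500, a lipid transfer protein-like gene, went from 11.0 in dez on control medium to 386.3 on high zinc. Most like ZAT10 were AT2G27080, AT2G32190, AT5G61890, NDB2 and AT3G60450, with r between 0.990 and 0.998. NDB2, an alternative NADH dehydrogenase of mitochondria that is known as stress responsive, had means of 160.7 and 181.7 in wild type on control medium and high zinc, and 158.4 and 481.5 in dez. A high r was common on these arrays: 693 of the 7231 genes had r above 0.9 with WRKY53 and 486 with ZAT10. AT4G12500, AT5G44390 and AT5G61890 had group means of at most 17.9 outside dez on high zinc. Like WRKY53, they passed the filter through their level in that group, which favours such a likeness. The likeness is therefore a description only.

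The 10 lists of defence and stress genes that work with WRKY factors and ZAT10 held 289 symbols, of which 18 were named by a probe set and 13 could be tested. With zinc in dez, 5 of the 13 rose, 2 fell and 6 did not pass, with a median log2 change of 0.39; the share of all probe sets called was 34.0%. GSTU25, a tau class glutathione transferase of oxidative stress, rose by 1.36 ± 0.16 (SE, limma adjusted p = 1.11e-04). GRX480, a glutaredoxin of the salicylic acid response that binds TGA factors, rose by 1.06 ± 0.12, from a mean intensity of 14.8 to 48.2. UGT74B1, a glucosyltransferase of glucosinolate synthesis, rose by 1.00 ± 0.12, and BIK1, an immune receptor-associated kinase, by 0.61 ± 0.10. ATMPK8, a MAP kinase, rose by 0.39 ± 0.10 (limma adjusted p = 0.0123), but did not pass without dez control replicate 1 (adjusted p = 0.120), without dez high-Zn replicate 1 (0.0578), under spike scaling (0.0552) or with the 3' minus 5' covariate (0.0763). COR47, a cold- and drought-induced dehydrin, fell by 1.57 ± 0.20 on the log2 scale, from 568.7 to 181.1 in mean intensity. NOL, a chlorophyll b reductase of the senescence list, had a change of -0.33 ± 0.12 (limma adjusted p = 0.0494), which is not a firm call. It was lost without either dez control array and without either dez high-Zn array, with changes between -0.40 and -0.26. The call was also lost without either wild-type control array, where the change stayed at -0.33 and only the shared spread and the adjustment moved. SAG101, a partner of EDS1 in immunity, had a change of 0.43 ± 0.16 (limma adjusted p = 0.0581), and passed at 0.70 without dez high-Zn replicate 1. IKU1 of the VQ motif proteins, EIN3, MYC3 and MYC4 of ethylene and jasmonate signalling, and the dehydrin LTI30 did not pass. Their log2 changes lay between -0.16 and 0.42. LTI30 passed without either wild-type control array, where its change stayed at 0.42. No gene of the C2H2 zinc finger list could be tested beside ZAT10.

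**Figure D4:**
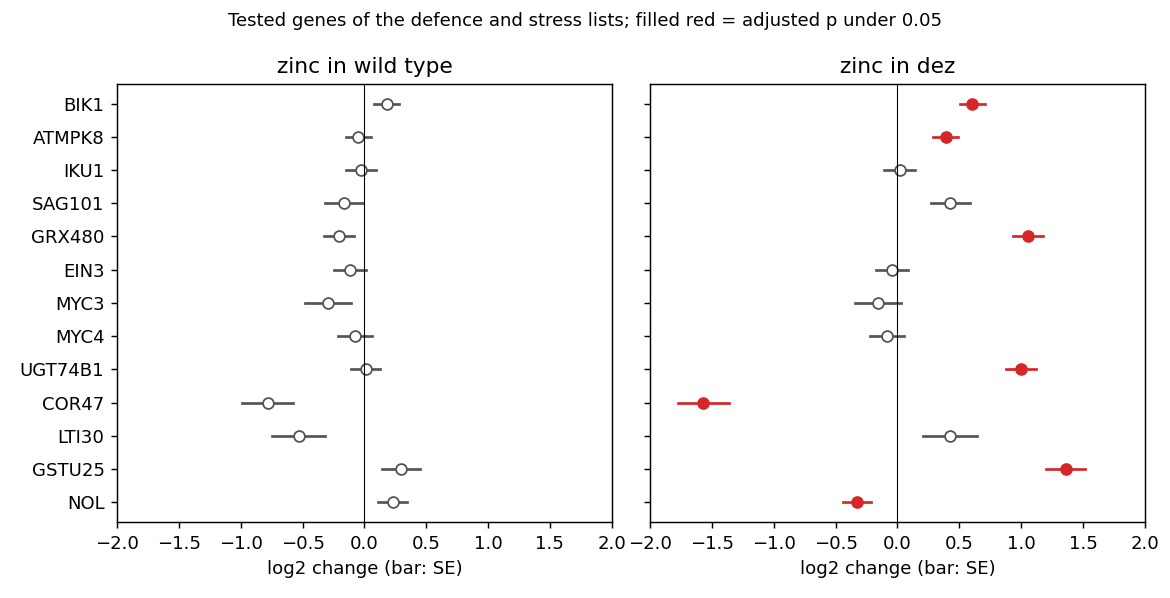
Log2 change with high zinc (x axis) in wild type and in dez for the 13 tested genes of the defence and stress lists, with bars of 1 SE; filled red points passed an adjusted p of 0.05. None is called in wild type, and in dez 5 are called higher, GSTU25 at 1.36 the highest, and 2 lower, COR47 at -1.57 the lowest.

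With zinc in wild type none of these 13 genes passed limma's test, and 2 had an unadjusted p under 0.05, COR47 with a log2 change of -0.78 ± 0.20 (SE) and LTI30 with -0.53 ± 0.22. On control medium 3 of the 13 differed between the genotypes, where 9.58% of all probe sets did: UGT74B1 was higher in dez by 0.63 ± 0.12, while GRX480 and LTI30 were lower, with differences of -0.62 ± 0.12 and -0.96 ± 0.22. None of the 3 was called without dez control replicate 2, and 1 was called without dez control replicate 1. On high zinc 6 of the 13 were higher in dez and COR47 was lower, with a difference of -1.22 ± 0.20; 42.8% of all probe sets were called there. UGT74B1 had the largest of these differences, 1.62 ± 0.12 (limma adjusted p = 4.59e-06), and 4 of the 13 were called with the 3' minus 5' covariate. The interaction was called in 4 of the 13, against 19.4% of all probe sets. It was positive for GRX480 (1.26 ± 0.17), GSTU25 (1.07 ± 0.22) and UGT74B1 (0.99 ± 0.17), and negative for NOL (-0.56 ± 0.16, limma adjusted p = 0.0365). Under poly-A spike scaling only the interaction of GRX480 was called among the 13, as 4.09% of all probe sets were. The values of UGT74B1 and GSTU25 were larger there, at 1.32 and 1.40, with larger standard errors of 0.45 and 0.49. The call of NOL was lost without 6 of the 8 arrays in turn.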

How the data were processed

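The deposited table held 1 intensity per probe set and array on a linear scale, for 22810 probe sets on 8 arrays. The submitters' processing notes name MAS5, with no version or role, and how the authors scaled the arrays is not stated in these notes. Intensity was taken as log2(intensity + 16) after 64 control probe sets were left out, and the deposited intensities were not scaled further. The upper 60% by mean log2 value were tested with limma 3.58.1 in R 4.3.3, with a linear model of 4 group means, moderated variances with a trend, two-sided tests and Benjamini-Hochberg adjustment within each of 5 comparisons. The fit had 4 residual and 6.28 prior degrees of freedom, and the small number of arrays limits the precision. The same steps were also run on simulated data with independent noise per probe set and array. Those data held no group shifts like those of the control measures, and no result here rests on them.

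Gene symbols came from GEO's platform annotation, updated by gene ID through RefSeq (TAIR10.1). Of the single-gene probe sets 13436 matched, 503 probe sets name several genes and were not used for names, and 53.4% of the tested probe sets had a name. Coordinates and sequences are not used here.

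The genes and lists were chosen with earlier results of these data known. Each WRKY gene and ZAT10 was to be named, in full where called in a comparison with an absolute log2 change of at least 0.5. WRKY20 and ZAP1 are also given in full, a choice made after their values were seen. The genes most like WRKY53 and ZAT10 were the 5 with the highest correlation, and from each list up to 4 genes with the smallest adjusted p for zinc in dez were named. Alternatives were other scalings, pseudocounts, filters, priors and thresholds, a 3' minus 5' covariate, a replicate block, the 4 arrays of a comparison alone, and each array left out.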

Additional observations from a re-analysis of the deposited data

Results flagged for a closer look

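The change with zinc differed between the genotypes, by limma's interaction test, in WRKY53 by 1.99 on the log2 scale (dez minus wild type). The same test passed in ZAT10 with 1.45, in WRKY47 with 1.40, in WRKY6 with 1.32 and in WRKY22 with 1.01. In each of these genes the 2 dez high-Zn arrays lay above all other arrays. That was also so in WRKY20 and ZAP1, which were not called, and the share of all probe sets with this separation was not counted. The 25S control, the poly-A spikes and the 3' minus 5' difference also stood apart on the dez high-Zn arrays.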

How the results depend on the processing

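The 15 called results of the WRKY genes and ZAT10 kept their call and direction in all 316 alternatives in which they could be tested. Some of these could not fail. The looser threshold of 0.1 keeps every call, and leaving out an array outside a pairwise comparison does not move its change. The 15 results are 5 genes in 3 comparisons that share the dez high-Zn arrays, so they are not independent. Of 323 alternatives of the 15 uncalled results 3 passed, all for WRKY20 in dez on high zinc. With the filter at the upper 40 percent the count of called genes was 2 for zinc in dez, 2 for dez on high zinc and 2 for the interaction, because WRKY53, ZAT10 and WRKY22 lie below that filter. Of all probe sets 38.3%, 46.6% and 22.3% were called in these comparisons there. With a pseudocount of 64 the zinc change in dez was 0.60 for WRKY22, 0.93 for ZAT10 and 1.15 for WRKY53, the dez difference on high zinc was 0.43, 0.78 and 1.21, and the interaction was 0.61, 0.89 and 1.16; a larger pseudocount shrinks changes of dim genes by construction. Under poly-A spike scaling the median of all probe sets was between 0.07 and 0.69 over the comparisons. It raised dez on high zinc to 1.73 for WRKY6, 1.34 for WRKY22 and 1.90 for ZAT10. NOL for zinc in dez became 0.0078, where the median of all probe sets was 0.35. EIN3 and LTI30 for dez on high zinc became 0.75 and 0.69, where that median was 0.69. Why the spikes differed between the groups was not tested. Spike scaling divides each array by 1 factor, so all probe sets shift the same way, dim ones less through the pseudocount. Under it 88.6% of calls for zinc in dez were higher, against 48.9% on the deposited scale; for dez on control medium these shares were 85.2% and 43.8%, for dez on high zinc 96.8% and 51.8%, and for the interaction 83.7% and 45.6%. All called probe sets numbered 28, 2047, 372, 7797 and 558 under it, in the order zinc in wild type, zinc in dez, dez on control medium, dez on high zinc and interaction, against 96, 4645, 1308, 5846 and 2653. The 4 arrays compared alone gave 26 calls for zinc in wild type, and the covariate gave 700 for dez on control medium and 3445 for dez on high zinc. With each array left out, calls over all probe sets ran from 49 to 106, 2868 to 4853, 359 to 1517, 4225 to 6029 and 1621 to 2791 in the same order. They moved by over 1.5 times for zinc in wild type without wild-type control replicate 2 (49), wild-type high-Zn replicate 2 (63) or either dez high-Zn array (54 each); for zinc in dez without dez control replicate 1 (2964) or 2 (2868); for dez on control medium without wild-type control replicate 2 (693) or dez control replicate 1 (519) or 2 (359); and for the interaction without dez control replicate 2 (1621). With the replicate number as a block the called genes were 0, 5, 0, 5 and 5 in the same order, as without it. Of all probe sets 0.85%, 32%, 8.3%, 40.8% and 18.1% were called with the block. The labels do not say that numbers pair samples, and replicate deviations had correlations between groups of -0.36 to 0.37.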

Other observations

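Other transcription factor families could be followed in few genes. Of the bHLH family, bHLH104, bHLH115, bHLH121 and bHLH34 were tested, and none was called by limma in any of the 5 comparisons on the deposited scale; 1 had an unadjusted p under 0.05 for zinc in wild type. bHLH121, a regulator of iron homeostasis, had mean intensities of 123.2 and 89.7 in wild type on control medium and high zinc, and 103.3 and 76.3 in dez, with log2 changes of -0.38 ± 0.17 (SE) in both genotypes. Its change in dez passed when only the 4 arrays compared were fitted (limma adjusted p = 0.0313). NAC014, the only NAC gene tested, had means of 43.1, 46.9, 53.8 and 59.4 in the same order of groups and was not called in any of the 5 comparisons on that scale. Under poly-A spike scaling, where the median of all probe sets for dez on high zinc was 0.69, bHLH104, bHLH34 and NAC014 were called higher in that comparison, at 0.77, 0.84 and 0.89.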
